A study of Homo sapiens with 14 samples.

Results

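Expression of 9 regulators of neural and neuroendocrine cell fate was examined in 22Rv1 cells, an established line of human prostate cancer, after FOXA1 was reduced, degraded or mutated. FOXA1 is a forkhead pioneer transcription factor that opens chromatin for the androgen receptor in luminal prostate cells. The 9 genes were taken by name: ATOH1 and NEUROD1, proneural basic helix-loop-helix (bHLH) activators; ASCL2, a bHLH activator of the achaete-scute family; HES1 and HES6, bHLH factors of the HES family; INSM1, a zinc-finger factor of neuroendocrine cells; SRRM4 and CELF3, RNA-binding proteins of neural splicing; and PEG10, an imprinted gene of retroelement origin. All 9 were found in each of the 4 deposited count tables, out of 57904 features in the knockdown table, 57905 in each degradation table and 20243 in the R219S table.

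The 14 libraries formed 7 groups of 2. Cells labelled wild type received a lentiviral control hairpin (shCtrl) or a hairpin against FOXA1 (shFOXA1). Cells labelled FOXA1_dTAG carry FOXA1 fused to a tag that a small molecule directs to the proteasome, and were sampled at 0 h, 1 h and 24 h of treatment. Libraries labelled WT and R219S, a FOXA1 mutation, came from the same FOXA1_dTAG background, so both of these groups carry the tag. The labels mention both dTAG molecule and DMSO for the tagged cells but do not say which the WT and R219S libraries received. The number of clones and hairpins is not given either. No 24 h vehicle group and no untagged cells given the molecule were among the groups. In their titles the shCtrl libraries are called 22Rv2, in their other labels 22Rv1. The labels do not say whether replicates were separate cultures, and the spread behind each p-value is that between libraries, which may be technical.

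In neural and endocrine tissues, proneural factors such as ATOH1 and NEUROD1 pair with E proteins, bind E-boxes and switch on differentiation genes. ASCL2, of the same bHLH class, is known instead for stem and progenitor cells of the intestine and trophoblast. HES1 is induced by Notch through RBPJ, binds N-boxes in proneural promoters and in its own, and represses them with TLE corepressors, while HES6 counters HES1. ID proteins take E proteins away from proneural partners. In prostate cancer, INSM1, SRRM4, CELF3 and PEG10 are known for expression in the neuroendocrine form that can appear after loss of luminal identity. SRRM4 favours neural microexons and acts on REST, the repressor of neuronal genes.

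The upstream sequences of 3 genes, HES1, ATOH1 and HES6, are printed below with matches to these motifs marked. RefSeq promoters (build GRCh38.p14, from 250 bases before to 50 bases after the start) matched 6 of the 9 genes: ATOH1, NEUROD1, HES1, HES6, SRRM4 and CELF3. Entries for ASCL2, INSM1 and PEG10 were not used here. The 250 bases before the start are printed 5′ to 3′ on the gene's strand, and capitals mark matches on either strand to the N-box (CACNAG), the RBPJ motif (GTGGGAA) or the E-box (CANNTG). The printed stretch of HES1 is chr3:194135898-194136147 (+), that of ATOH1 is chr4:93828503-93828752 (+), and that of HES6 is chr2:238240039-238240288 (-).
HES1: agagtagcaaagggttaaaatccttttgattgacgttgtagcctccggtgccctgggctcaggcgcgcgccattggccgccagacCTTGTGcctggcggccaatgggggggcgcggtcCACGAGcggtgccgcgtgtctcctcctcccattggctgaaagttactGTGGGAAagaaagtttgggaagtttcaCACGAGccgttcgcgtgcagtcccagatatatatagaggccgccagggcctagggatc
ATOH1: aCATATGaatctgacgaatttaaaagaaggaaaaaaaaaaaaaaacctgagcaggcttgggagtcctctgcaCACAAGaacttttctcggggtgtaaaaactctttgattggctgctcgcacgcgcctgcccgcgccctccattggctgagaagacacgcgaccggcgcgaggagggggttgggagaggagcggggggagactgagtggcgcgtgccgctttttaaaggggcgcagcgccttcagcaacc
HES6: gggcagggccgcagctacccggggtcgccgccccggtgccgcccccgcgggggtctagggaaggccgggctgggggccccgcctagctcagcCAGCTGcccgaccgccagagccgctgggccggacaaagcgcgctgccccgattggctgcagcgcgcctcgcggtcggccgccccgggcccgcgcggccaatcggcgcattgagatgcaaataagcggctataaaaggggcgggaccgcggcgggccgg
Over the whole 300 bases HES1 held 4 N-boxes and 1 RBPJ match. Of the 35116 RefSeq promoters of this length, 38.0% held at least 1 N-box, 0.293% held at least 4, and 6.25% held the RBPJ motif. ATOH1 held 2 N-boxes and 1 E-box, and HES6 held 1 E-box and no N-box. The matches were not particular to these genes. SRRM4 held 2 N-boxes and 1 E-box, as ATOH1 did, and CELF3 held 1 N-box and 1 E-box. NEUROD1 held 1 N-box and no E-box. An E-box was present in 68.7% of promoters. The forkhead motif GTAAACA, present in 3.42%, had no match in these 6 windows. No 2 of the printed matches overlap. A match describes letters only, and the promoters come from another build than the hg19 that the submitters' processing notes name for the counts.

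Library totals ran from 21.6 M to 38.5 M counts, and FOXA1 was measured first as a check of the labels. FOXA1 stood at 406 and 437 CPM (counts scaled to the library total) in shCtrl and at 297 and 301 in shFOXA1. It stood at 169 and 166 at 0 h, 168 and 166 at 1 h, 207 and 199 at 24 h, 1020 and 1040 in WT, and 699 and 678 in R219S. The FOXA1 message was thus lower with the hairpin, while degradation acts on the protein, which these data do not measure. All 12 luminal prostate markers had counts in every library and summed to 3710 to 8840 CPM. Summed leukocyte and endothelial markers stayed at or below 4.24 CPM, while 8 basal markers summed to 43.4 to 68.1 CPM, of which DST, a cytoskeletal linker, made up 22.9 to 54.0 CPM. Of the basal genes, KRT5 and TP63 had 0 to 8 counts. LAMB3, a laminin chain, rose at 24 h from 9.10 and 8.95 to 21.6 and 25.0 CPM. In R219S LAMB3 rose from 2.60 and 2.54 to 15 and 12.9 CPM. DST fell there from 35.6 and 38.7 to 25.1 and 22.9 CPM, and NGFR from 3.93 and 3.79 to 0.742 and 1.20. By the edgeR test described below, 1 basal marker was higher and 2 were lower of 5 tested in R219S. At 24 h 2 were higher and 1 was lower of 6 tested. The share of all genes called was 62.1% in R219S and 46.9% at 24 h. The part of the basal genes in the member values was not tested. The replicate pair of shFOXA1 stood farther apart than the others, with a chi-square per degree of freedom of 11.83 against 2.044 to 4.044.

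Levels of the 9 genes spanned from 0 to 1590 CPM. Per kilobase of exon, at 0 h, PEG10 was highest with 107 CPM per kb, followed by SRRM4 with 19, HES1 with 15.9, CELF3 with 14.4, HES6 with 2.83, ATOH1 with 2.74 and ASCL2 with 0.331. The per-kilobase scale uses GENCODE 29 exon lengths and ranks genes against each other only roughly. HES6 and ATOH1 are neighbours in that order and do not differ beyond the spread of HES6, whose libraries stood at 5.16 and 6.39 CPM. NEUROD1 had 0 counts in 13 libraries and 2 counts in the second shFOXA1 library. In the 0 h pair, 0 of 69.8 M counts allows up to 0.043 CPM. INSM1 had 0 to 3 counts per library. Neither gene was tested in any comparison, and any difference in them was not detectable at this depth. SRRM4, CELF3 and PEG10 were thus well expressed in cells where the NEUROD1 and INSM1 messages were at or near 0.

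**Figure D1:**
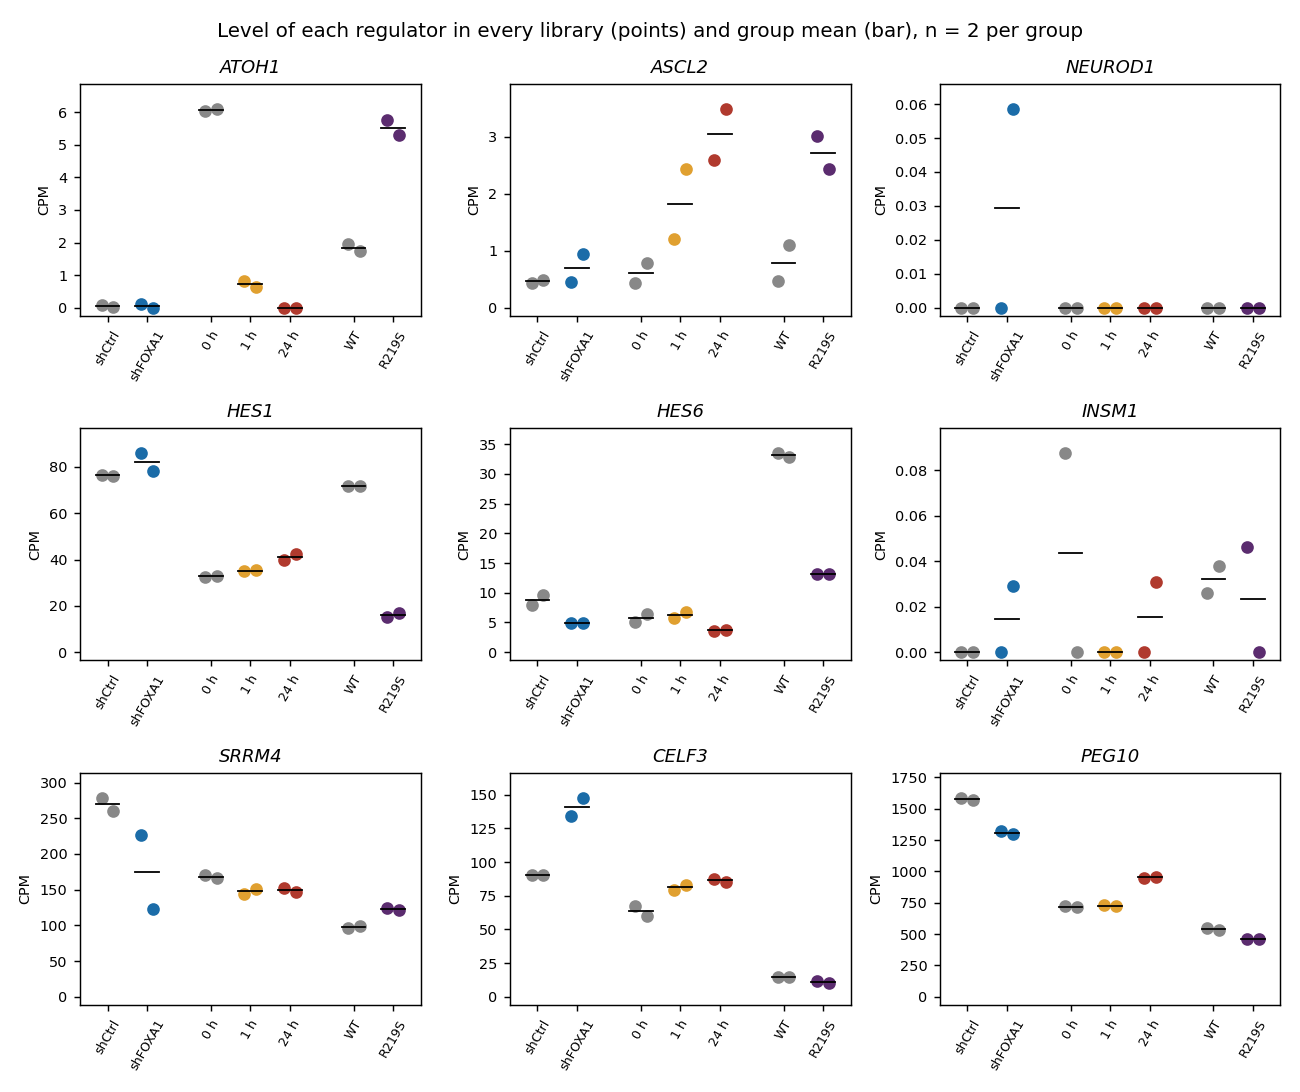
CPM of library total (y axis, linear, scaled to each gene) of the 9 regulators in every library (points) with the mean of each group of 2 (bar); groups are on the x axis. ATOH1 falls from 6.07 at 0 h to 0 at 24 h and stands at 5.53 in R219S; the NEUROD1 and INSM1 panels show at most 3 counts in a library.

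With the FOXA1 hairpin, 1 regulator rose and 2 fell: CELF3 was higher and HES6 and PEG10 were lower, while ASCL2, HES1 and SRRM4 did not pass the test. Calls here and below are at an adjusted p under 0.05 (edgeR's quasi-likelihood F test, Benjamini-Hochberg over all genes tested). The 3 calls came from 6 members tested, where 23.6% of all genes were called. The hairpin pair was read from bulk RNA, in which fewer cells of a type and less RNA per cell cannot be told apart; the same holds for every comparison below.

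CELF3, an RNA-binding splicing factor of neurons, stood at 90.8 and 90.5 CPM in shCtrl and at 134 and 148 in shFOXA1. Both hairpin libraries were above both controls, a log2 fold change of 0.67 ± 0.067 (SE, edgeR adjusted p = 5.07e-05). HES6, the HES1 antagonist, stood at 7.94 and 9.55 CPM in shCtrl and at 4.90 and 4.93 in shFOXA1. The groups did not overlap, and the log2 fold change was -0.81 ± 0.154 (edgeR adjusted p = 0.00278). PEG10 stood at 1590 and 1570 CPM in shCtrl and at 1320 and 1300 in shFOXA1. Its log2 fold change was -0.24 ± 0.0569 (edgeR adjusted p = 0.00869). The PEG10 call was lost without either control library (edgeR adjusted p = 0.133 and 0.137), and the HES6 call without the second shCtrl library (0.0602).

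SRRM4, the regulator of neural microexons, stood at 279 and 260 CPM in shCtrl and at 226 and 123 in shFOXA1. Both hairpin libraries were lower, but they stood so far apart that the log2 fold change of -0.60 ± 0.401 did not pass (edgeR adjusted p = 0.431). HES1 stood at 76.7 and 76.0 CPM against 86.0 and 78.2, and ASCL2 at 0.438 and 0.493 against 0.458 and 0.939; neither passed (edgeR adjusted p = 0.183 and 0.376). ATOH1 had 4 counts in each group and was too low to test. The ratio of its pooled rates was 1.03 with an exact 95% interval of 0.191 to 5.51, so a change of several fold in either direction was not detectable. Summed neuroendocrine markers were 395 and 384 CPM in shCtrl and 352 and 260 in shFOXA1, with the second shFOXA1 library lowest in that sum as in SRRM4. Their part in the SRRM4 value was not tested.

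After 1 h of FOXA1 degradation, ATOH1 and ASCL2 moved in opposite directions. ATOH1, the bHLH activator that specifies secretory cells of the gut and hair cells of the ear, was 8.26-fold lower in pooled rate, and ASCL2, a bHLH factor of intestinal stem cells and trophoblast, had risen. CELF3 was slightly higher and SRRM4 slightly lower, and HES1, HES6 and PEG10 did not pass the test. The 4 calls came from 7 members tested, where 19.8% of all genes were called.

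ATOH1 stood at 6.04 and 6.11 CPM at 0 h, at 0.819 and 0.646 at 1 h, and at 0 in both 24 h libraries. The counts behind these levels were 207 and 217, then 28 and 22, then 0 and 0. Each time point was below the one before in every library. The log2 fold change at 1 h was -3.05 ± 0.221 (edgeR adjusted p = 1.6e-20). At 24 h the level was at least 130-fold lower than at 0 h, taking a floor of 3 counts over the group, and the change was called (edgeR adjusted p = 1.34e-16).

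ASCL2 stood at 0.437 and 0.788 CPM at 0 h, at 1.20 and 2.44 at 1 h, and at 2.59 and 3.50 at 24 h. The counts were low, 15 and 28 at 0 h against 83 and 113 at 24 h. The 3 groups did not overlap, although the 1 h pair differed about as much as the 1 h and 24 h means. The log2 fold change was 1.55 ± 0.337 at 1 h (edgeR adjusted p = 0.000265) and 2.26 ± 0.292 at 24 h (1.07e-07). The 1 h call was lost without the second 1 h library, which left 0.96 (edgeR adjusted p = 0.199). The difference between 24 h and 1 h was 0.70 ± 0.261 (edgeR adjusted p = 0.025) and was lost without either the first 1 h library (0.28, adjusted p = 0.479) or the second 24 h library (0.47, adjusted p = 0.248).

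At 24 h all 7 members tested were called, 4 higher and 3 lower, where 46.9% of all genes were called. The 1 h and 24 h comparisons share the 0 h libraries. HES1, the Notch-induced repressor of ATOH1 and of its own promoter, stood at 32.5 and 33.1 CPM at 0 h, 35.0 and 35.3 at 1 h, and 39.9 and 42.4 at 24 h. The 3 groups did not overlap. The log2 fold change of HES1 at 24 h was 0.29 ± 0.0616 (edgeR adjusted p = 0.000265). HES6 stood at 5.16 and 6.39 CPM at 0 h and at 5.70 and 6.73 at 1 h, which overlap, and at 3.61 and 3.75 at 24 h. Its log2 fold change at 24 h was -0.69 ± 0.156 (edgeR adjusted p = 0.000441), with both 24 h libraries below all 4 others.

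Among the RNA-binding proteins, SRRM4 stood at 170 and 166 CPM at 0 h, 144 and 151 at 1 h, and 152 and 146 at 24 h. The fall was in place at 1 h (log2 fold change -0.19 ± 0.0341, edgeR adjusted p = 5.23e-06), was -0.22 ± 0.04 at 24 h (3.98e-05), and the 2 times did not pass against each other (-0.02 ± 0.0373, adjusted p = 0.65). CELF3 stood at 67.7 and 60.1 CPM at 0 h, 79.6 and 83.1 at 1 h, and 87.8 and 85.4 at 24 h. It rose by 0.34 ± 0.046 at 1 h (edgeR adjusted p = 8.44e-09) and by 0.40 ± 0.0512 at 24 h (1.07e-07), again with no call between the times (0.05 ± 0.0465, adjusted p = 0.409). PEG10 followed another course: 723 and 714 CPM at 0 h, 729 and 723 at 1 h, and 950 and 956 at 24 h. Its log2 fold change was 0.01 ± 0.0259 at 1 h (edgeR adjusted p = 0.824) and 0.37 ± 0.033 at 24 h (6.8e-11).

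Between 1 h and 24 h, tested in one fit of the 6 degradation libraries, 5 of 7 members were called, where 45.7% of all genes were. ATOH1 and HES6 were lower and ASCL2, HES1 and PEG10 higher at 24 h. For HES1 the difference was 0.19 ± 0.0589 (edgeR adjusted p = 0.00792), lost without the first 1 h library (0.0573) or the second 24 h library (0.106). Summed neuroendocrine markers were 181 and 185 CPM at 0 h, 197 and 198 at 1 h, and 166 and 173 at 24 h. Of 9 neuroendocrine markers tested, 3 were called higher and 0 lower at 1 h, where 19.8% of all genes were called. At 24 h 0 were called higher and 3 lower, where 46.9% of all genes were called. CHGB, a granin of secretory granules, fell from 38.9 and 38.0 CPM at 0 h to 21.8 and 23.6 at 24 h. Over the same times SYP stood at 52.8 and 54.5 and then 55.1 and 59.1 CPM, and SCG3 at 54.6 and 56.9 and then 59.1 and 60.4.

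**Figure D2:**
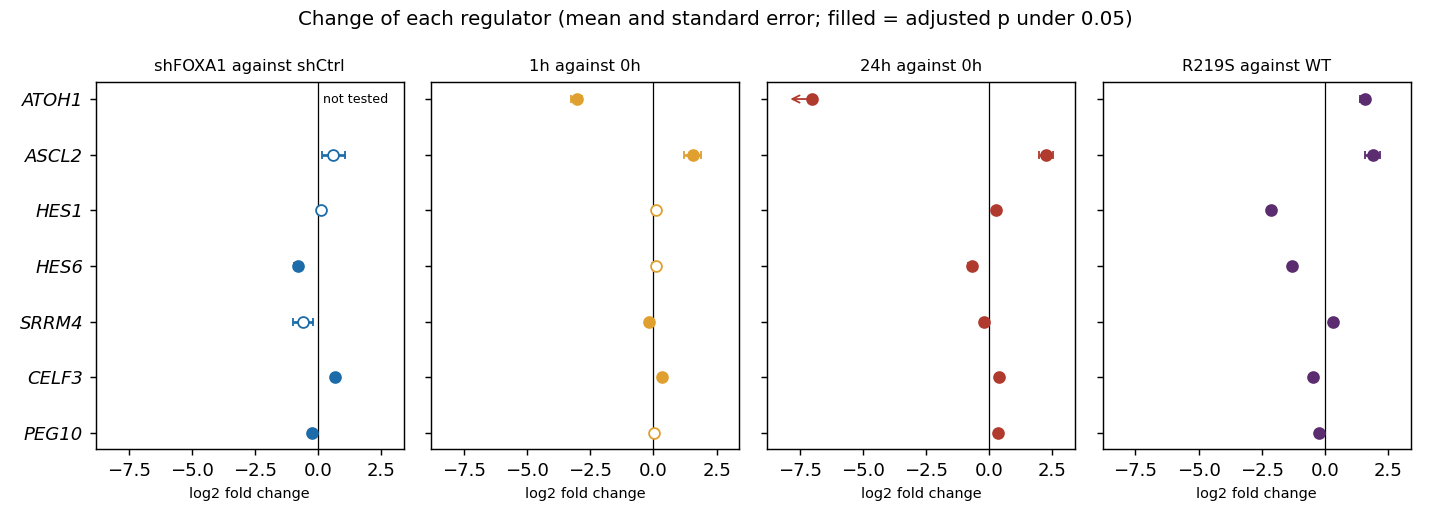
log2 fold change (x axis) of the 7 members that passed the filter on low counts, in the 4 main comparisons (panels), with the standard error; filled points are called at an adjusted p under 0.05. The ATOH1 arrow at 24 h marks a lower bound of 130-fold (7.02 on the log2 scale) because both libraries held 0 counts; in R219S all 7 points are filled, with HES1 lowest.

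In R219S cells all 7 members tested differed from WT, 3 higher and 4 lower, where 62.1% of all genes were called. ATOH1 and ASCL2, the bHLH activators, were both higher, and HES1 and HES6 were both lower. SRRM4 was higher, and CELF3 and PEG10 were lower.

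HES1 stood at 71.8 CPM in both WT libraries and at 15.3 and 16.9 in R219S. The log2 fold change of -2.14 ± 0.066 (edgeR adjusted p = 4.73e-139) was the most negative of the 7 members tested in this comparison, and the pooled rate was 4.44-fold lower. HES6 stood at 33.5 and 32.9 CPM in WT and at 13.2 in both R219S libraries, a log2 fold change of -1.31 ± 0.0792 (edgeR adjusted p = 8.58e-51). For both HES genes the replicates of each group lay far closer together than the groups.

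ATOH1 stood at 1.95 and 1.74 CPM in WT and at 5.75 and 5.30 in R219S, on 75 and 46 against 124 and 137 counts. The log2 fold change was 1.58 ± 0.187 (edgeR adjusted p = 1.21e-15). ASCL2 stood at 0.468 and 1.10 CPM in WT and at 3.01 and 2.44 in R219S, a log2 fold change of 1.90 ± 0.284 (edgeR adjusted p = 2.72e-10). Both genes were higher in each R219S library than in either WT library. Counts behind ASCL2 were 18 and 29 in WT and 65 and 63 in R219S.

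SRRM4 stood at 96.5 and 99.5 CPM in WT and at 124 and 122 in R219S (log2 fold change 0.35 ± 0.0447, edgeR adjusted p = 2.48e-13). CELF3 stood at 14.6 and 14.8 CPM against 11.3 and 10.1 (-0.45 ± 0.0973, 1.16e-05). PEG10 stood at 550 and 529 CPM against 462 and 460 (-0.21 ± 0.0376, 1.27e-07). In pooled rate these were ratios of 1.26, 0.722 and 0.852. SGCE, the divergent imprinted neighbour that shares 219 exon bases with PEG10 on the opposite strand, fell more, from 60.5 and 63.2 CPM to 38.5 and 40.8 (-0.62 ± 0.0566, 7.32e-25). At 24 h of degradation SGCE did not pass (-0.11 ± 0.0604, edgeR adjusted p = 0.127) while PEG10 rose. Whether counting used strand is not given in the sources used here, so how reads in the shared bases were counted is not known. Summed neuroendocrine markers were 94.1 and 88.2 CPM in WT and 56.4 and 53.7 in R219S. Of these sums, ENO2 made up 60.7 and 51.9 CPM in WT and 19 and 17.4 in R219S. The lower sum thus follows ENO2 and does not show a fall of these markers as a class. SCG2 rose from 3.2 and 3.94 to 8.12 and 7.36 CPM, and CHGB fell from 2.08 and 2.16 to 0.974 and 1.01. Of 8 neuroendocrine markers tested, 2 were called higher and 4 lower. Summed fibroblast markers were 225 and 217 CPM in WT and 506 and 518 in R219S. COL3A1, a fibrillar collagen, rose from 7.05 and 5.91 to 275 and 280 CPM, while COL1A2 was at 0 in all 4 of these libraries. COL1A1 stood at 25.2 CPM in both WT libraries and at 13.5 in both R219S libraries. LUM stood at 171 and 165 CPM in WT and at 179 and 185 in R219S. Of 5 fibroblast markers tested, 3 were called higher and 1 lower, where 62.1% of all genes were called. The part of these marker changes in the member values was not tested.

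Direct tests compared the responses. By this test the 24 h change differed from the hairpin change in 4 of 7 members, ATOH1 included, where 22.7% of all genes differed. PEG10 rose with degradation and fell with the hairpin, a difference of 0.62 ± 0.0627 on the log2 scale (edgeR adjusted p = 3.02e-07). For ASCL2 the difference was 1.67 ± 0.562 (edgeR adjusted p = 0.0367), and for CELF3, which rose in both, it was -0.26 ± 0.0889 (0.0392). With DESeq2 neither ASCL2 nor CELF3 passed (adjusted p = 0.0585 and 0.0808). The ATOH1 difference (edgeR adjusted p = 0.000558) rests on 8 counts in the knockdown table and was lost without the first shFOXA1 library. ATOH1 was too low to test with the hairpin and passed the filter here only through its 0 h counts. No difference in response to the hairpin is therefore read from it. HES6 fell in both comparisons, and the difference of 0.13 ± 0.224 did not pass (edgeR adjusted p = 0.752). The contrast also carries the difference between cell preparations and tables, which cannot be told apart from that between hairpin and degrader.

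The R219S change differed from the 24 h change in 6 of 7 members, where 56% of all genes differed. This test was chosen after the changes had been seen. ATOH1 was lower after degradation and higher in R219S. The groups' pooled rates gave a difference of at least 8.58 on the log2 scale, with the R219S ratio taken at its estimate and not at the low end of its interval. HES1 was higher after degradation and lower in R219S (-2.43 ± 0.0912, edgeR adjusted p = 1.15e-41). SRRM4 (0.55 ± 0.0591), CELF3 (-0.86 ± 0.105) and PEG10 (-0.58 ± 0.0503) also had opposite signs in the 2 comparisons, while HES6 fell in both and fell further in R219S (-0.63 ± 0.164, edgeR adjusted p = 0.000685). ASCL2 rose in both, and its difference of -0.37 ± 0.452 did not pass (edgeR adjusted p = 0.507). ASCL2 was the 1 member of the 7 whose change was not told apart between the mutation and degradation.

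The genes around the members were described from 8 lists, by the count called and the median log2 fold change beside that of all genes. In the 4 main comparisons the median of all genes lay between 0.000738 and 0.00995. The share of all genes called, against which each list's count is to be read, was 23.6% with the hairpin, 19.8% at 1 h, 46.9% at 24 h and 62.1% in R219S. Of the E proteins and ID inhibitors, all 7 were tested. The list medians were 0.00112 with the hairpin, 0.227 at 1 h, 0.179 at 24 h and -0.00461 in R219S. At 1 h, 4 rose and 1 fell: ID1 rose by 1.24 ± 0.0815 on the log2 scale (edgeR adjusted p = 0.0017), ID2 by 0.87 ± 0.0299 and ID3 by 0.70 ± 0.0271. ID1 went from 151 and 176 CPM at 0 h to 380 and 396 at 1 h. At 24 h 5 rose, ID2 by 1.08 ± 0.0373 and ID1 by 1.07 ± 0.0549. In R219S 3 rose and 3 fell, with ID2 up by 2.40 ± 0.0646, from 15.3 and 14.2 to 74.7 and 79.9 CPM, and ID4 down (-1.05 ± 0.106). With the hairpin 1 rose, TCF4, and 1 fell, ID1 (-0.77 ± 0.168, edgeR adjusted p = 0.0412). ID2 was called higher at 1 h, at 24 h and in R219S.

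Of the 16 HES and HEY repressors and their corepressors, 12 were tested in each main comparison. At 1 h 5 rose and 1 fell, and the list medians were -0.266 with the hairpin, 0.00396 at 1 h, 0.0179 at 24 h and -0.195 in R219S. HEY1, a Notch-target repressor, rose by 1.25 ± 0.0915 on the log2 scale from 8.51 and 9.31 to 20.5 and 22.2 CPM, and HES4 rose by 0.97 ± 0.117. At 24 h 4 rose and 4 fell, with BHLHE40, a stress- and clock-linked repressor, up by 1.49 ± 0.191 and TLE4 down (-1.19 ± 0.232). In R219S 4 rose and 7 fell. TLE1, a corepressor that HES proteins recruit, rose by 3.07 ± 0.163, from 1.46 and 1.17 to 11.7 and 10.7 CPM. TLE4 was higher too, from 3.64 and 4.51 to 9.32 and 8.32 CPM. TLE3, another corepressor, fell (-1.03 ± 0.0413), from 253 and 267 to 126 in both R219S libraries. TLE2 (-0.26 ± 0.0515) and TLE5 (-0.17 ± 0.0458) fell as well. HEYL fell from 42 and 34 counts to 1 and 2, and HES2 fell (-1.85 ± 0.15). HES1, HES2, HEYL and TLE3 were thus lower in R219S cells in which TLE1, TLE4, BHLHE40 and BHLHE41 were higher. With the hairpin 2 rose and 4 fell, among them BHLHE41 (-1.63 ± 0.302) and HES4 (-0.93 ± 0.117).

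**Figure D3:**
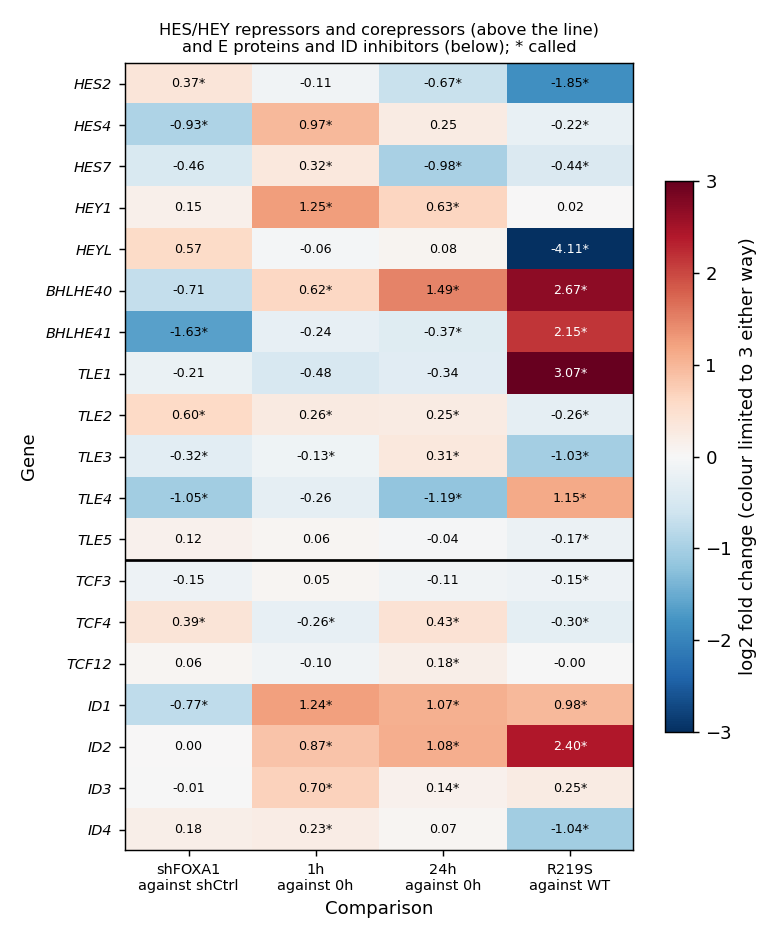
log2 fold change (number and colour; stars mark calls at an adjusted p under 0.05) of the HES and HEY repressors with their corepressors, and of the E proteins and ID inhibitors (rows), in the 4 main comparisons (columns). ID1, ID2 and ID3 are called higher at 1 h, 24 h and in R219S; HEYL and HES2 are the lowest cells of the R219S column, and TLE1 the highest.

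Of the 40 genes for Notch ligands, receptors and processing, 5 rose and 4 fell of 38 tested at 1 h (19.8% of all genes called), 12 rose and 4 fell of 37 at 24 h (46.9%), 8 rose and 3 fell of 37 with the hairpin (23.6%), and 14 rose and 14 fell of 37 in R219S (62.1%). The list medians were -0.006, 0.108, 0.0658 and 0.0133. NOTCH3, a Notch receptor, was lower with the hairpin (-1.0 ± 0.146 on the log2 scale) and in R219S (-1.76 ± 0.136), where it stood at 10.9 and 11.7 CPM in WT and 3.43 and 3.14 in R219S. DTX1, an E3 ligase of the pathway, was lower in R219S (-2.28 ± 0.262). NRARP, a Notch-induced feedback inhibitor, was lower at 24 h (-0.59 ± 0.0835), when HES1 was higher, and lower in R219S together with HES1 (-0.61 ± 0.0536), from 70.0 and 72.2 to 46.8 and 45.2 CPM. NEURL1, which acts on ligands, was lower at 24 h (-0.67 ± 0.164) and higher in R219S (1.03 ± 0.179).

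Among 24 other proneural bHLH factors, only 5 to 7 passed the filter on low counts in a main comparison, and 1 rose and 1 fell in each of the hairpin, 1 h and 24 h comparisons. The list medians were -0.194 with the hairpin, 0.0722 at 1 h, -0.0325 at 24 h and -0.241 in R219S. ATOH8, a distant ATOH1 relative, was called higher in all 4: by 1.58 ± 0.313 on the log2 scale with the hairpin, 0.71 ± 0.0752 at 1 h, 1.60 ± 0.0684 at 24 h and 1.49 ± 0.142 in R219S. It stood at 15.8 and 16.5 CPM at 0 h and 48.7 and 51.9 at 24 h. NEUROD4, on 44 and 30 counts at 0 h, fell at 1 h (-1.05 ± 0.395, edgeR adjusted p = 0.0487) and 24 h (-1.27 ± 0.405). BHLHA15, the secretory-cell factor MIST1, fell with the hairpin (-2.51 ± 0.36). In R219S, 2 of 5 rose and 2 fell, NEUROD2, ATOH7 and ASCL5 on few counts.

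Of 28 neuroendocrine and neuronal lineage transcription factors, 2 fell of 17 tested with the hairpin, 2 rose and 2 fell of 14 at 1 h, 2 rose and 2 fell of 15 at 24 h, and 4 rose and 8 fell of 16 in R219S. The list medians were -0.272, 0.151, -0.101 and -0.6 in that order. With the hairpin the genes that fell were PROX1 (-1.68 ± 0.567, adjusted p = 0.0497) and PAX6. ONECUT2, a driver of lineage plasticity, was lower at 1 h (-0.50 ± 0.0456) and 24 h (-0.24 ± 0.047). In R219S, SOX11 fell from 11.1 and 12.0 to 1.62 and 2.13 CPM (-2.59 ± 0.154) and MYT1 fell (-1.71 ± 0.178), while EBF1, a factor of neurons and B cells, rose from 5.41 and 4.73 to 42.5 and 41.7 CPM (3.05 ± 0.0889). EBF1 was also higher at 24 h (0.89 ± 0.0851).

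The REST complex, 11 genes that silence neuronal programmes, was tested in full in each main comparison. With the hairpin 1 rose and 1 fell, at 1 h 3 rose and 1 fell, and in R219S 6 rose and 3 fell. The list medians were -0.0269 with the hairpin, 0.0741 at 1 h, 0.0611 at 24 h and 0.128 in R219S. At 24 h 5 rose and 3 fell, where 46.9% of all genes were called: REST rose by 0.45 ± 0.0391 on the log2 scale, from 154 and 153 to 211 and 221 CPM, SIN3B rose by 0.74 ± 0.0412, and EZH2, the Polycomb methyltransferase in this list, fell (-0.88 ± 0.0548). EZH2 was lower with the hairpin too (-0.36 ± 0.0627) and in R219S (-0.29 ± 0.0472). Of 27 neural splicing and RNA-binding genes other than SRRM4 and CELF3, 1 rose and 5 fell of 22 at 1 h, 4 rose and 7 fell of 21 at 24 h, 3 rose and 1 fell of 23 with the hairpin, and 3 rose and 12 fell of 20 in R219S. The list medians were -0.0559, -0.0461, -0.0464 and -0.16 in that order. RBM24, a muscle splicing regulator, fell at 24 h (-2.12 ± 0.165) and rose in R219S (2.09 ± 0.178). CELF5, a CELF3 relative, rose with the hairpin (0.74 ± 0.141) and at 24 h (0.56 ± 0.1), as CELF3 did.

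The genes whose course over the 6 degradation libraries was most like that of ATOH1 or ASCL2, the members called with at least a 2-fold change at 1 h or 24 h, were found by the smallest root-mean-square difference of centred log2 CPM. For ATOH1 they were RGS1 (0.638), DSCAM-AS1 (0.846), TRGC2 (0.993), HISLA (1.03) and IGF1 (1.12). RGS1, a regulator of G-protein signalling, stood at 31.8 and 30.8 CPM at 0 h, 5.94 and 6.05 at 1 h, and 0.436 and 1.09 at 24 h. IGF1, a growth factor, was at 22.6 and 22.2, 17.0 and 18.6, and 0.904 and 0.651 CPM. Of the 5 genes, RGS1 stood lowest at 1 h relative to 0 h. For ASCL2 the nearest were RAB5IF (0.182), LINC01235 (0.185), LRRC26 (0.221), ENSG00000232821 (0.223) and ENSG00000224794 (0.223). RAB5IF stood at 4.49 and 5.94, 12.1 and 23.0, and 20.7 and 25.4 CPM. LINC01235 stood at only 0 and 0.0563 CPM at 0 h and 0.343 and 0.341 at 24 h. ENSG00000232821 stood at 0.0875 and 0.253 CPM at 0 h and 0.904 and 0.899 at 24 h. The likeness of these low genes rests on few counts. In ASCL2, RAB5IF and LRRC26 the second library was above the first at each time. Profiles over 6 libraries that share their depth and time course are a description.

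**Figure D4:**
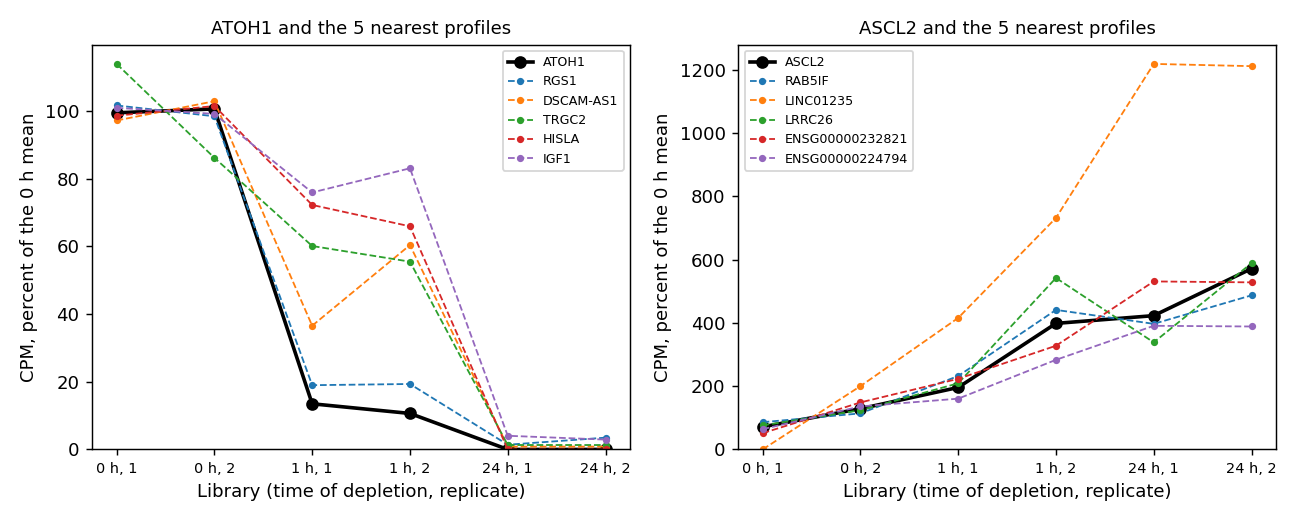
CPM as percent of the 0 h mean (y axis) in the 6 degradation libraries (x axis; lines join libraries for reading only) for ATOH1 (left) and ASCL2 (right), in black, with the 5 genes of nearest profile, dashed. ATOH1 and RGS1 stand lowest at 1 h, and all 6 genes are near 0 at 24 h; ASCL2, RAB5IF and LRRC26 each have the second library above the first at every time.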

How the data were processed

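The members and gene lists were chosen with earlier results of these data known. The authors deposited raw read counts per gene, without normalization. Per the submitters' processing notes hg19 was the build and STAR, featureCounts and DESeq2 were used, with no versions given; annotation and strand setting are not given in the sources used here. Ensembl identifiers were matched to symbols for 52338 of 57905 features; both degradation tables held identical 0 h counts, which were used once. Totals per library were 21.6 M to 38.5 M. Spreadsheet dates had replaced 26 names in the counts of R219S and WT; these rows stayed in the fits.

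Each comparison was fitted on its whole table by the quasi-likelihood F test of edgeR 4.0.16 under R 4.3.3 (TMM scaling, filterByExpr, robust glmQLFit), with Benjamini-Hochberg adjustment over all genes tested and a threshold of 0.05. In the degradation and R219S fits 7 members passed the filter, and 6 in the knockdown fit. Standard errors are approximate, the absolute log2 change divided by the root of F. The 24 h and 1 h libraries were compared in a fit of all 6 degradation libraries, and differences between changes were tested as interactions over 8 libraries. The scripts were tested on simulated data. CPM divides by the library total. Intervals (exact, 95%) and the floor of 3 counts cover counting error only. Named were all 9 members, SGCE and the 5 nearest profiles of members changed at least 2-fold at 1 h or 24 h. From each list, genes were taken from up to 3 highest and 3 lowest called. In R219S, TLE2, TLE4 and TLE5 were named outside that rule, beside TLE1 and TLE3. NRARP was named outside it too, beside HES1, since its fall in R219S was not among the 3 largest of its list. Marker genes and FOXA1 were named to describe the samples. Alternatives were DESeq2 1.42.0, RLE scaling, other filters, a block on replicate number, leaving out each library and, chosen after seeing the data, a correction for GC content and length.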

Additional observations from a re-analysis of the deposited data

Results flagged for a closer look

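These results differed between systems by a direct test of the difference (edgeR's quasi-likelihood interaction, adjusted p under 0.05). Between 24 h of degradation and the hairpin, the ASCL2 difference was 1.67 on the log2 scale (adjusted p = 0.0367) and the CELF3 difference was -0.26 (0.0392). With DESeq2 neither ASCL2 nor CELF3 passed, and the hairpin change of ASCL2 was not called. The PEG10 difference was 0.62 (3.02e-07). ATOH1 also passed (adjusted p = 0.000558), but on 8 counts in the knockdown table, and it met the filter only through its 0 h counts. The call was lost without the first shFOXA1 library. No fold is given, and no difference in response to the hairpin is read from it.

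Between R219S and 24 h of degradation, ATOH1 differed by at least 8.58 on the log2 scale, with 3 counts over the 24 h group as the floor. This bound takes the ATOH1 ratio of R219S to WT at its estimate of 2.95 and leaves out its exact interval of 2.37 to 3.69. The difference was -2.43 for HES1, -0.63 for HES6, 0.55 for SRRM4, -0.86 for CELF3 and -0.58 for PEG10 (adjusted p at most 0.000685). In both contrasts the cell preparation and the table differ along with the perturbation and cannot be told apart from it.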

How the results depend on the processing

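The number of members called stayed at 7 at 24 h and 7 in R219S, and at 6 in the R219S and 24 h difference, under every alternative run. Leaving out each library in turn, with the lone library assumed to vary like the others, gave 1 to 5 members with the hairpin, 3 to 4 at 1 h, 3 to 5 between 24 h and 1 h, and 2 to 4 in the difference between 24 h and hairpin, where DESeq2 gave 2. SRRM4 was called without either shFOXA1 library (-1.10 and -0.23). At 1 h DESeq2 gave ASCL2 no adjusted p, so its 3 calls are not a loss. Over all genes, the 4506 calls with the hairpin became 2421 or 1713 without the first or second shCtrl library and 6793 without the first shFOXA1 library, and the 3850 calls at 1 h became 2058 with DESeq2 and 2428 or 2232 without the first or second 1 h library.

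Shared replicate numbers did not correlate (replicate differences between groups 0.0338, 0.0251, 0.0181 and -0.016), so they are not taken as pairing. With a replicate block the members called were 3 with the hairpin, 4 at 1 h, 7 at 24 h and 7 in R219S, 5 between 24 h and 1 h, and 4 and 6 in the differences, the same counts as without it.

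Of 409 alternatives for called member changes, 24 lost the call and 0 changed sign. Alternatives that gave a member no adjusted p, as DESeq2 did for ASCL2 at 1 h, are not among the 409. Signs changed only in changes that were not called. HES6 at 1 h was -0.15 with the GC content and length correction, and ran from -0.043 to 0.26 with 1 library left out. SRRM4 between 24 h and 1 h ran from -0.057 to 0.0062 with 1 library left out. In the difference between 24 h and hairpin, HES6 was -0.12 with the GC correction and ran from -0.021 to 0.28 with 1 library left out. In the difference between R219S and 24 h, ASCL2 ran from -0.95 to 0.26 with 1 library left out, and was positive only without the second WT library. The causes were not tested. Depth limits NEUROD1, INSM1 and, in the knockdown, ATOH1.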

Other observations

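Among 21 retroelement-derived and imprinted genes listed with PEG10, 5 rose and 2 fell of 16 tested with the hairpin, 5 rose and 1 fell of 17 at 1 h, 4 rose and 5 fell of 17 at 24 h, and 4 rose and 6 fell of 16 in R219S. The share of all genes called in these comparisons was 23.6%, 19.8%, 46.9% and 62.1%, so the list's counts at 24 h and in R219S lie near the background. Its median log2 fold changes were 0.0524, 0.0924, -0.045 and -0.0487. CDKN1C, an imprinted cell-cycle inhibitor, rose with the hairpin (0.66 ± 0.137 on the log2 scale), at 1 h (0.46 ± 0.0821) and at 24 h (0.79 ± 0.0789). ARC, a retroelement-derived synaptic gene that is also an immediate-early gene, fell at 1 h (-1.69 ± 0.239) and 24 h (-1.58 ± 0.236), from 3.59 and 3.21 CPM at 0 h to 1.17 and 0.94 at 1 h. PNMA2, another gene of retroelement origin, fell in R219S (-1.35 ± 0.114).

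The control groups of the 3 systems stood at different levels of the members, which come from separate tables and were not tested. ATOH1 averaged 0.0575 CPM in shCtrl, 6.07 at 0 h and 1.85 in WT. HES6 averaged 8.75, 5.77 and 33.2 CPM, CELF3 90.6, 63.9 and 14.7 CPM, and PEG10 1580, 718 and 540 CPM in the same order. The 0 h and WT libraries are both labelled FOXA1_dTAG and differed in all 4 of these genes by more than the gap within either pair. The FOXA1 message differed as well, averaging 422 CPM in shCtrl, 168 at 0 h and 1030 in WT, against 688 in R219S. Its part in the member values was not tested.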
